A study of Mus musculus with 6 samples.

Results

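The glucocorticoid receptor gene Nr3c1 and 9 genes known to answer to the receptor (Fkbp5, Sgk1, Tsc22d3, Zbtb16, Map3k6, Ddit4, Klf9, Errfi1 and Arrdc2) were followed across the cell classes of the aged mouse hippocampus, after sevoflurane and after oxygen. The 10 genes were taken by symbol from the 32285 genes of the deposited tables, and each symbol matched 1 row. Nuclei were isolated from frozen hippocampi of mice 18 to 20 months old and sequenced in 6 droplet libraries. In 3 libraries the mice had breathed 2% sevoflurane, an inhaled anaesthetic, in 60% O2 for 6 h at 1 L/min, and in the other 3 they had breathed 60% O2 alone for as long and at the same flow, so that raised oxygen was common to both groups. By the labels, replicate 3 of both groups was female and the other replicates were male. The labels name no strain and do not give the number of animals behind each library, and the p-values below reflect only how far the libraries of a group differed.

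The glucocorticoid receptor is a hormone-activated transcription factor. It waits in the cytoplasm in a complex with heat shock proteins, binds corticosterone in rodents, moves to the nucleus and attaches to DNA at short palindromes. Fkbp5 is the textbook feedback gene of the pathway, because its product binds the receptor complex and lowers the affinity for hormone. In the hippocampus, where the receptor is abundant, the pathway is known for its part in the stress response.

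After filters on depth and mitochondrial share and removal of doublets, 51874 nuclei were kept, with 7734 to 9708 in a library and 56334621 to 72636984 deposited UMIs (unique molecular identifiers, that is, counted transcripts) per library. Clusters were named from marker genes, which left 9996 nuclei unnamed, and 12 classes held at least 20 nuclei in every library. The unnamed included clusters of 1764, 1154, 621 and 563 nuclei with medians of 10132 to 11546 UMIs, a depth also found in named neurons. Another, of 603 nuclei, had Gad1, Gad2 and Slc32a1 raised. Sevoflurane replicates 1 to 3 gave it 167, 218 and 177, oxygen replicates 1 to 3 only 11, 13 and 17. Pooled neurons below exclude all unnamed clusters, and the effect of this was not tested. The comparison centres on 4130 astrocyte-like nuclei (433 to 804 in a library, 8 of 8 astrocyte markers raised), 762 endothelial-like nuclei (55 to 193, 12 of 12 markers raised, but with the pericyte marker Rgs5 among the leading genes) and 25258 neurons pooled over 7 neuronal classes (3202 to 5213). The sex labels did not match sex-linked genes in 3 libraries: Xist stood at 1363 CPM (counts per gene scaled to a common library total) in sevoflurane replicate 1, labelled male, and at 1.22 or less elsewhere, and both libraries labelled female expressed Y-linked genes. Sevoflurane replicate 1 therefore stands apart, and results are given below without it where it decides them. Between libraries, 331 barcode sequences recurred. Choroid plexus-like nuclei numbered 60, 16 and 99 in the oxygen libraries and 0 in each sevoflurane library.

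RefSeq promoter windows (GRCm38.p6, the 250 bases before a transcript start) were available for 8 of the 10 genes, in 16 windows, and were searched for the receptor's palindrome, AGAACA and TGTTCT separated by any 3 bases, and for the hexamer AGAACA alone, on either strand. Over the full 300 bases, only 3 of 32851 windows of all genes (0.00913%) held the palindrome without a mismatch, and 1 of these 3 belonged to Sgk1. This window, chr10:21993640-21993889 on the plus strand, lies inside the Sgk1 gene and overlaps none of its exons in GENCODE M21. It is shown with the palindrome, which begins 189 bases before the transcript start, and a further hexamer in capitals.
Sgk1, palindrome without mismatch: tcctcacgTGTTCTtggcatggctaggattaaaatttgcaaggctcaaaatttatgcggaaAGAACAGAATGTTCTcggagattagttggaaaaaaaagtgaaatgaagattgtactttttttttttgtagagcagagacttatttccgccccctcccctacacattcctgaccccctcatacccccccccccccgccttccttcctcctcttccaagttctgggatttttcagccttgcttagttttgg
A second Sgk1 window, chr10:21985854-21986103 on the plus strand and also outside exons, held the palindrome with 2 mismatches in its 12 fixed bases, shown in capitals. Of all windows, 606 (1.85%) held a palindrome with up to 2 mismatches.
Sgk1, palindrome with 2 mismatches: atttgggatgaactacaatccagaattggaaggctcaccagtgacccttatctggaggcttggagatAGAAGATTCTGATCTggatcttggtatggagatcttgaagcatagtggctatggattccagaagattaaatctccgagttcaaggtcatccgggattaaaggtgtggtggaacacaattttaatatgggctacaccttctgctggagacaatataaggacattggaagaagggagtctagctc
The hexamer was found in 4 of the 16 windows, 3 of Sgk1 and 1 of Tsc22d3, against 18.97% of all windows. More of the 16 windows belonged to Sgk1 than to any other of the 8 genes, which gave Sgk1 more places for a match. The windows of Map3k6 (chr4:133240568-133240817, plus strand) and Arrdc2 (chr8:70839721-70839970, minus strand), which rose in astrocyte-like nuclei, are also shown. Neither held a hexamer, so no letters are in capitals. The windows of Ddit4, Errfi1, Fkbp5 and Klf9 held none either.
Map3k6: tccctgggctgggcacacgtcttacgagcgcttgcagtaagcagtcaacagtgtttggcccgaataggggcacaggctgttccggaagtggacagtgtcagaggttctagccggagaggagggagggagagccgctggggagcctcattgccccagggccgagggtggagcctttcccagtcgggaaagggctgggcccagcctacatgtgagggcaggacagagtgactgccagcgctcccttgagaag
Arrdc2: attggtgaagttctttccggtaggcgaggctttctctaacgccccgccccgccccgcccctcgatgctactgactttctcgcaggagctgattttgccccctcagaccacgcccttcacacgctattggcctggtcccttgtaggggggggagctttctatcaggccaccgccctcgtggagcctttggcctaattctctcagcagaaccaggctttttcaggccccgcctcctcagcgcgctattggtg
A match is a description of letters, and no match says only that these letters are not in the window.

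Nr3c1, the receptor itself (ENSMUSG00000024431), was, among the 12 classes, most abundant in endothelial-like nuclei and least in CA2 and CA3 pyramidal-like nuclei. In the oxygen libraries it stood at 306 ± 25.6 CPM (SD, n = 3) in endothelial-like nuclei, 255 ± 36.3 in microglia-like and 169 ± 8.96 in astrocyte-like nuclei. Endothelial-like and microglia-like nuclei overlapped in range, whereas every microglia-like value lay above every astrocyte-like value. Oligodendrocyte-like nuclei followed at 155 ± 18.2 CPM and their precursors at 136 ± 21.6. Among neurons the order ran from subicular or cortical excitatory-like (109 ± 7.51 CPM) and CA1 pyramidal-like (105 ± 1.96) nuclei, which overlapped, through dentate granule-like (74.6 ± 2.98) and inhibitory-like nuclei (47.3 ± 3.36) to CA3 (29.5 ± 4.27) and CA2 pyramidal-like nuclei (25.4 ± 1.84), which again overlapped. Ependymal-like nuclei had 97.3 ± 32.4 CPM, with a wide spread.

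**Figure D1:**
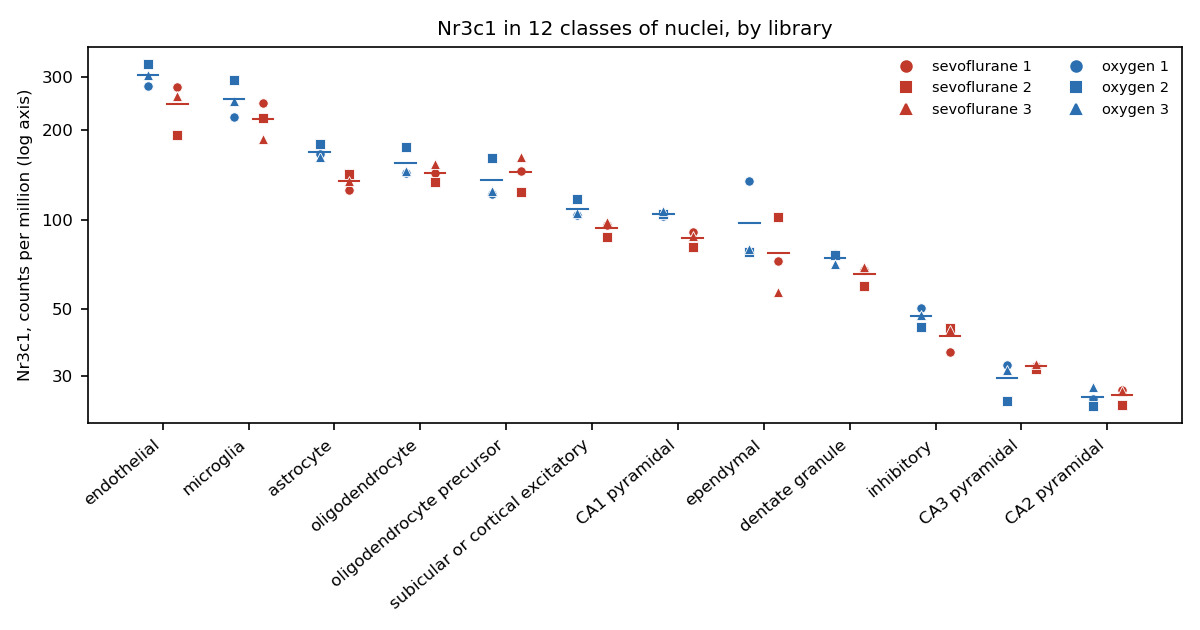
Nr3c1 in CPM (log axis) in 12 classes of nuclei, ordered by the oxygen mean; each point is 1 library (symbol by replicate, red sevoflurane, blue oxygen) and each bar a mean of 3 libraries. Endothelial-like nuclei stand highest and CA2 pyramidal-like nuclei lowest, and the red points lie below all blue points in 6 classes.

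After sevoflurane Nr3c1 had lower means in 9 of the 12 classes and passed the test in none of them (quasi-likelihood test in edgeR, p-values adjusted by Benjamini and Hochberg's method over all genes of the class). In astrocyte-like nuclei the sevoflurane libraries 1 to 3 held 126, 142 and 135 CPM and the oxygen libraries 166, 179 and 162, with no overlap. This gave a log2 fold change of -0.33 (SE 0.12, adjusted p 0.182). Endothelial-like nuclei held 278, 193 and 260 CPM after sevoflurane and 281, 333 and 305 with oxygen, a log2 fold change of -0.34 (SE 0.18, adjusted p 0.464). Pooled neurons held 68.6, 61.3 and 69.8 CPM after sevoflurane and 76.5, 79.9 and 76.0 with oxygen, a log2 fold change of -0.22 (SE 0.06, adjusted p 0.0963). In 6 of the 12 classes (CA1 pyramidal, dentate granule, subicular or cortical excitatory, inhibitory, astrocyte and endothelial-like) all sevoflurane libraries lay below all oxygen libraries. In that order 11.7%, 12.9%, 11.6%, 10.7%, 10.1% and 9.86% of all genes tested did so. The classes share libraries and are not independent counts. As a background for such counts, the share of all genes tested that passed in either direction was 2.03% in CA1, 0.478% in CA2 and 1.08% in CA3 pyramidal-like, 4.58% in dentate granule-like, 1.74% in inhibitory-like and 1.88% in excitatory-like nuclei of the subiculum or cortex. It was 2.27% in astrocyte-like, 2.66% in endothelial-like, 0.452% in microglia-like, 0.527% in oligodendrocyte-like, 0% in oligodendrocyte precursor-like and 0.732% in ependymal-like nuclei. In neurons the value shrank to -0.14 (adjusted p 0.245) once each library's trend on gene span was removed.

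Fkbp5, the feedback gene, passed the test in none of the 12 classes, and its treatment groups overlapped in every one of them. In astrocyte-like nuclei it stood at 148, 449 and 608 CPM in sevoflurane replicates 1 to 3 and at 192, 87.4 and 183 CPM in oxygen replicates 1 to 3. Sevoflurane replicate 1 lay within the oxygen range, and the other two sevoflurane libraries lay far above it. The log2 fold change was 1.41 (SE 0.65) and did not pass the test (adjusted p 0.429). Without sevoflurane replicate 1 it was 1.79, again short of the threshold (adjusted p 0.121). In endothelial-like nuclei sevoflurane replicates 3 and 2 were again the highest and oxygen replicate 2 the lowest, with 143, 355 and 454 CPM after sevoflurane and 209, 76.9 and 276 with oxygen (log2 fold change 0.81, SE 0.59, adjusted p 0.67). Pooled neurons spanned a narrow range, with 89.1, 124 and 143 CPM after sevoflurane and 111, 102 and 105 with oxygen (0.16, SE 0.16, adjusted p 0.625).

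Over the 12 classes Fkbp5 was highest in sevoflurane replicate 3 in 10, and lowest in oxygen replicate 2 in 6 and in sevoflurane replicate 1 in 5. With sevoflurane replicate 1 left out it passed in inhibitory-like nuclei, at 0.76 (adjusted p 0.00731, against 0.51 and 0.568 with all libraries). Its level by class differed from that of the receptor: microglia-like nuclei held 904 ± 207 CPM with oxygen (SD, n = 3), above every oxygen library of the other 11 classes tested, followed by oligodendrocyte-like nuclei at 245 ± 53.8 and endothelial-like nuclei at 187 ± 101. Of the 12 classes inhibitory-like nuclei were lowest at 52.6 ± 7.93 CPM. Fkbp5 (chr17:28399094-28517527, minus strand) overlaps the annotated genes Gm49838 on its own strand and Gm22146 on the other. Gm22146 was counted as a gene of its own, and how reads in these overlaps were assigned is not stated.

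**Figure D2:**
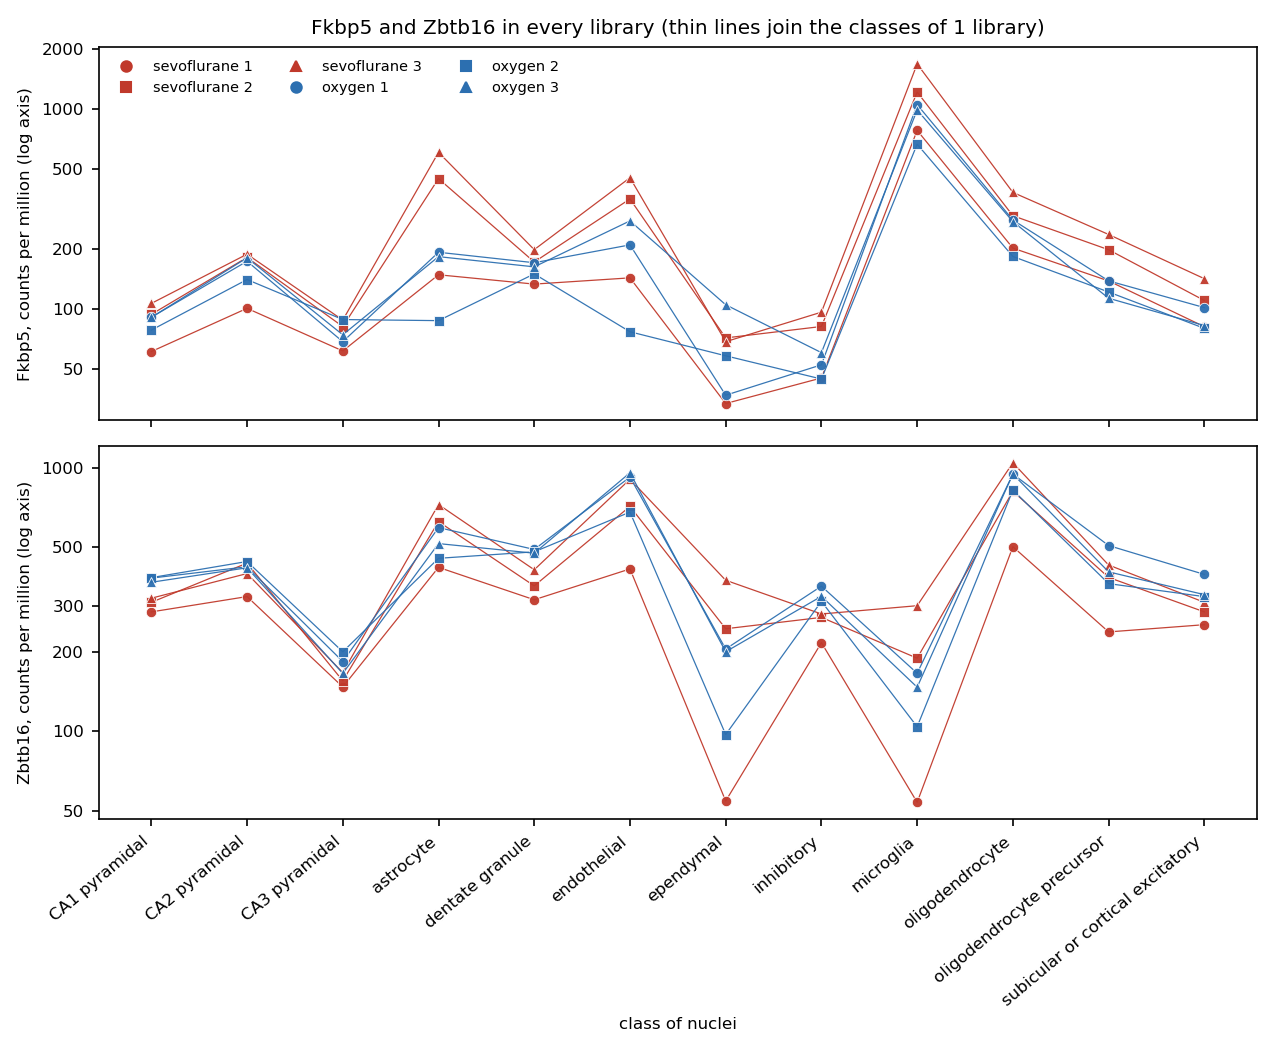
Fkbp5 and Zbtb16 in CPM (log axes) in 12 classes of nuclei; each symbol is 1 library and thin lines join the classes of a library. Sevoflurane replicate 3 lies highest for Fkbp5 in 10 classes, and sevoflurane replicate 1 lies lowest for Zbtb16 in all 12.

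In astrocyte-like nuclei 3 of the 10 genes rose, Map3k6, Arrdc2 and Ddit4, and 0 fell, in a class where 0.982% of 12624 genes tested rose and 1.28% fell. Map3k6, a stress-responsive MAP kinase kinase kinase gene (chr4:133240818-133252929), stood at 6.41, 17.2 and 17.3 CPM in the sevoflurane libraries and at 2.82, 2.76 and 3.17 CPM in the oxygen libraries. All 3 sevoflurane libraries lay above all oxygen libraries, with replicate 1 nearest to them. Map3k6 rose by a log2 fold change of 2.30 (SE 0.38, adjusted p 0.00419), from counts of 8, 41 and 46 UMIs after sevoflurane and 6, 7 and 6 with oxygen.

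Arrdc2, which encodes an arrestin-domain protein (chr8:70835129-70839720), stood at 48.9, 51.1 and 66.9 CPM after sevoflurane and at 19.3, 11.03 and 27.5 with oxygen. The groups did not overlap, and the gene rose by a log2 fold change of 1.59 (SE 0.25, adjusted p 0.00451). Ddit4, whose product restrains the growth kinase mTORC1 (chr10:59949669-59951834), stood at 34.5, 39.4 and 40.6 CPM after sevoflurane and at 21.2, 14.2 and 19.0 with oxygen. Again the groups did not overlap, and it rose by 1.10 (SE 0.19, adjusted p 0.00456). Without sevoflurane replicate 1 the 3 changes were 2.55, 1.66 and 1.15, and all 3 passed the test. Of the 6 runs that each left out a library, Map3k6 and Arrdc2 passed in all, and Ddit4 missed the threshold in 1 (0.93, adjusted p 0.0532, without oxygen replicate 2).

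Of the 10 genes, these 3 lay above the oxygen libraries without overlap in astrocyte-like nuclei and Nr3c1 below, shares that all genes tested reached at 9.35% and 10.1%. Beside Nr3c1 and Fkbp5, 5 further genes did not pass there: Errfi1 had a log2 fold change of 0.43 (adjusted p 0.379), Tsc22d3 0.30, Zbtb16 0.19, Klf9 0.12 and Sgk1 0.02. The median over the 10 genes, which were chosen with earlier results of these data known, was 0.36, against 0.01 over all genes tested. Errfi1 stood at 23.2, 50.7 and 47.7 CPM after sevoflurane and at 30.1, 30.3 and 34.3 with oxygen, and it passed once sevoflurane replicate 1 was left out (0.64, adjusted p 0.0395). Markers of other types moved with the groups in this class: the summed level of 5 CA1 markers was 106 to 116 CPM with oxygen and 120 to 153 after sevoflurane, that of 6 CA2 markers 117 to 148 against 148 to 236, that of 6 mossy cell markers 36.4 to 49.7 against 50.6 to 67.0, that of 5 immature neuron markers 31.2 to 36.5 against 46.8 to 51.7, and that of 8 ependymal markers 14.9 to 18.6 against 26.6 to 29.9. Lower after sevoflurane were 5 smooth muscle markers, at 11.9 to 21.0 CPM with oxygen and 6.46 to 8.74 after sevoflurane, and 8 choroid plexus markers, at 174 to 996 against 30.8 to 47.6. The 8 astrocyte markers summed to 12321 to 12605 CPM with oxygen and 10171 to 12126 after sevoflurane. No marker of these lists was at 0 in the class, and their part in the result was not tested.

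The share of astrocyte-like nuclei with at least 1 Arrdc2 UMI, after every nucleus was thinned to 1000 UMIs, was 5.63% ± 1.76 after sevoflurane and 1.70% ± 0.98 with oxygen (SD, n = 3), and unthinned 15.2% and 5.30%. For Ddit4 the thinned shares were 3.36% ± 0.31 and 1.65% ± 0.47. In pooled neurons, where both genes were scarce, the thinned shares were 0.54% and 0.39% for Arrdc2 and 0.90% and 0.51% for Ddit4. Thinning put every nucleus at the same depth, but these shares do not measure reads from free RNA in astrocyte-like nuclei. Before thinning, median depth was 2713 to 3255 UMIs per astrocyte-like nucleus and 7607 to 9278.5 per neuron. Thinning left out 44 astrocyte-like nuclei in each group, which held fewer UMIs.

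**Figure D3:**
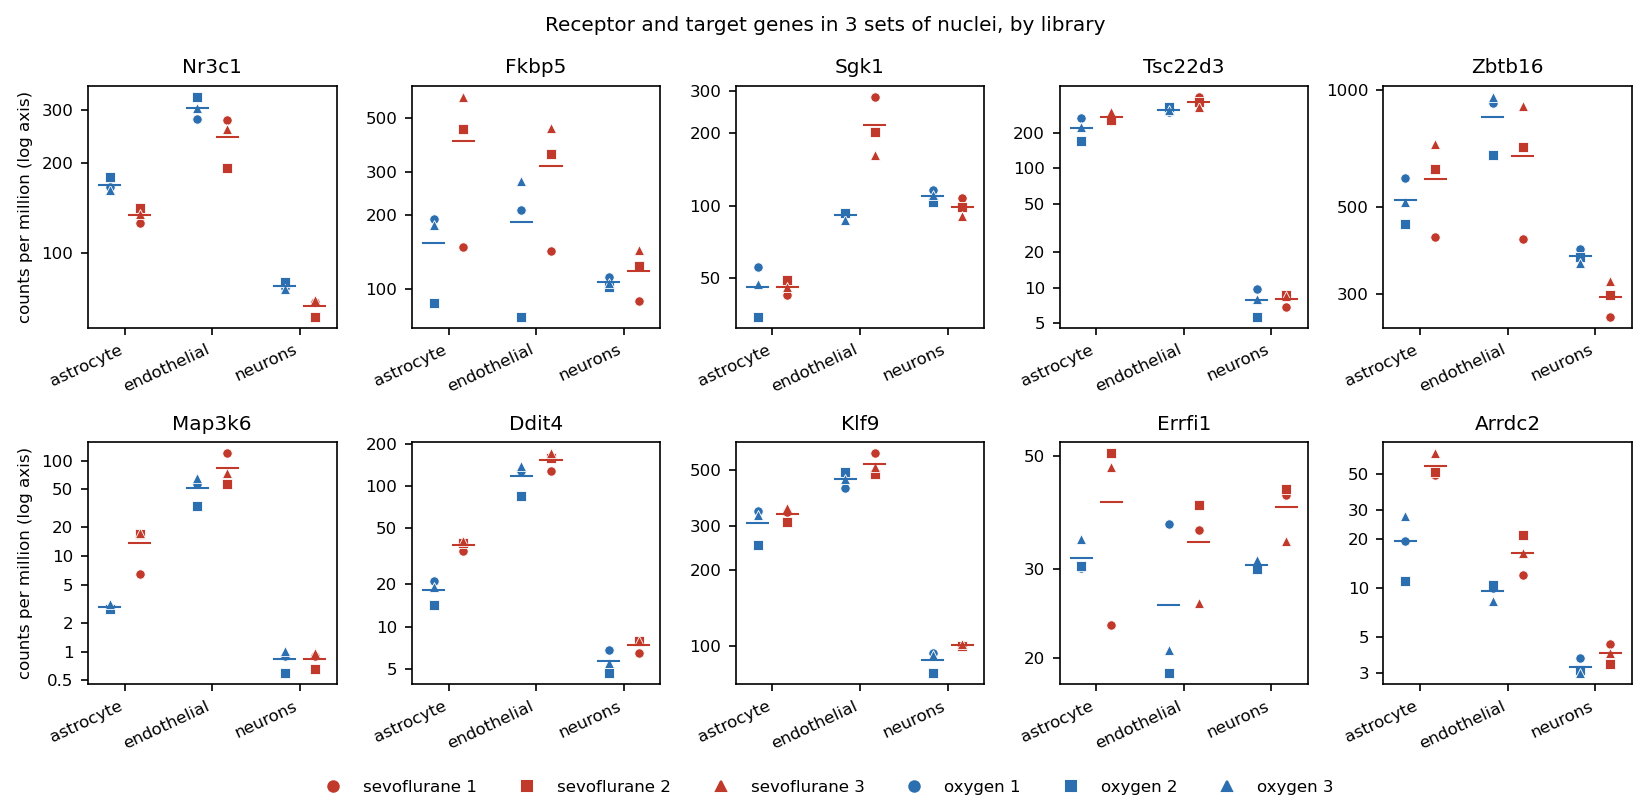
CPM (log axes, a scale for each panel) of the 10 genes in astrocyte-like nuclei, endothelial-like nuclei and pooled neurons; points are libraries (symbol by replicate, red sevoflurane, blue oxygen) and bars are means of 3 libraries. Map3k6, Ddit4 and Arrdc2 separate by treatment in astrocyte-like nuclei and Sgk1 in endothelial-like nuclei, where it goes from 87.1 to 93.6 with oxygen to 162 to 282 after sevoflurane.

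In endothelial-like nuclei 1 gene of the 9 that could be tested rose, Sgk1, in a class where 1.4% of 8530 genes tested rose and 1.27% fell, and 0 of the 9 fell. Sgk1, a kinase gene that controls ion transport and cell survival (chr10:21882184-21999903), stood at 282, 202.5 and 162 CPM in the sevoflurane libraries and at 93.3, 93.6 and 87.1 CPM in the oxygen libraries. Every sevoflurane library lay well above the oxygen libraries, and the oxygen libraries differed little among themselves. The log2 fold change was 1.18 (SE 0.21, adjusted p 0.00383), from 71, 106 and 139 UMIs after sevoflurane and 66, 45 and 42 with oxygen. Without sevoflurane replicate 1 it was 0.98 (adjusted p 0.00597). With a stricter filter on nuclei the log2 fold change was 0.58 and no longer passed (adjusted p 0.605). That filter allows at most 1% mitochondrial UMIs, and the median share of these nuclei was 1.00% to 1.79% by library, so that 12 to 60 nuclei per library were left.

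Tsc22d3 was also above the oxygen libraries without overlap, at 398, 361 and 330 CPM against 297, 328.5 and 309, but its change of 0.21 (SE 0.17) did not pass (adjusted p 0.674). Among the 9 genes these 2 lay above and Nr3c1 below, against 9.21% and 9.86% of all genes tested. Map3k6, whose oxygen libraries all lay higher in this class than in the other 11 tested (52.1 ± 17.0 CPM with oxygen, SD, n = 3, and 2.92 ± 0.222 in astrocyte-like nuclei, the next), had a log2 fold change of 0.58 (SE 0.29, adjusted p 0.403). Its libraries overlapped, with 119, 57.3 and 74.6 CPM after sevoflurane and 56.6, 33.3 and 66.4 with oxygen. Arrdc2 was too scarce to be tested, with 3 to 14 UMIs in a library, but its sevoflurane libraries (11.9, 21.0 and 16.3 CPM) also lay above its oxygen libraries (9.90, 10.4 and 8.30). Ddit4, Klf9, Errfi1 and Zbtb16 had log2 fold changes of 0.40, 0.19, 0.29 and -0.31 and did not pass. Beside these results, the 8 astrocyte markers summed to 1783 to 1840 CPM with oxygen and 1329 to 1576 after sevoflurane in this class, 5 smooth muscle markers to 234 to 391.6 against 103 to 225, 8 leptomeningeal fibroblast markers to 115 to 208 against 58.7 to 109, 5 Cajal-Retzius markers to 152 to 192.5 against 22.0 to 83.2, and 8 choroid plexus markers to 92 to 764 against 25.5 to 32.2. Higher after sevoflurane were 6 CA2 markers, at 70 to 117 CPM with oxygen and 132 to 198 after sevoflurane, and 7 T cell markers, at 1.99 to 2.66 against 3.64 to 16.6. The 12 endothelial markers overlapped (14263 to 15680 against 12470 to 14921), as did the 8 pericyte markers (4357 to 6244 against 4158 to 4640), and 2 Cajal-Retzius markers and 1 each of the choroid plexus, leptomeningeal and T cell markers were at 0. The part of these markers in the Sgk1 result was not tested.

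In pooled neurons 1 of the 10 genes fell, Zbtb16, and 0 rose, where 2.89% of 19086 genes tested fell and 1.46% rose. Zbtb16, which encodes the zinc finger repressor PLZF (chr9:48654297-48836222), stood at 262, 298 and 324 CPM after sevoflurane and at 391, 373 and 359 with oxygen. The groups did not overlap, and sevoflurane replicate 1 was the lowest. The log2 fold change was -0.35 (SE 0.08, adjusted p 0.0482), close to the threshold. It did not pass without sevoflurane replicate 1 (-0.27, adjusted p 0.0708) or 2 (-0.36, adjusted p 0.101), nor without oxygen replicate 1, 2 or 3 (-0.32 to -0.38, adjusted p 0.108 to 0.154). Nor did it pass with stricter nuclei (-0.35, adjusted p 0.0509) or with the correction for gene span (-0.21, adjusted p 0.151), a span that for Zbtb16 is 182 kb. Among the neuronal classes it passed in dentate granule-like nuclei (316, 357 and 411 CPM against 490.4, 480.2 and 475), where it was -0.42 (SE 0.09, adjusted p 0.0271) and where 3.15% of all genes tested fell. There too it did not pass with the gene span correction (-0.29, adjusted p 0.0724), or without sevoflurane replicate 2 or any 1 of the oxygen libraries (-0.41 to -0.43, adjusted p 0.0849 to 0.102). Summed markers of cell types moved with the groups in both. In pooled neurons 11 inhibitory markers (2727 to 3032 CPM with oxygen, 2119 to 2555 after sevoflurane), 12 subicular or cortical markers (1647 to 1828 against 1345 to 1590), 7 CA3 markers (1217 to 1288 against 1073 to 1169), 5 Cajal-Retzius markers (135 to 149.99 against 88.8 to 102) and 8 choroid plexus markers (122 to 396 against 72.5 to 74.3) were lower after sevoflurane. The CA1, CA2, T cell and ependymal lists were higher, and no marker of these lists was at 0. In dentate granule-like nuclei 7 dentate granule markers (1942 to 2154 against 1657 to 1831) were lower, with the CA3, subicular or cortical and choroid plexus lists. The CA1, CA2, immature neuron, T cell, endothelial and ependymal lists were higher there, with 2 T cell markers at 0. The part of these shifts in the Zbtb16 result was not tested. With the neuronal classes that were tested singly weighted equally, Cajal-Retzius-like nuclei left out, the change was -0.31 (limma, adjusted p 0.0427).

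Errfi1, a feedback inhibitor of the EGF receptor (chr4:150853919-150868892), stood at 41.9, 43.1 and 34.1 CPM in pooled neurons after sevoflurane and at 30.2, 29.98 and 31.2 with oxygen. The groups did not overlap, and the change of 0.38 (SE 0.09) just missed the threshold (adjusted p 0.0565). Klf9, a hormone-responsive transcription factor gene, also lay above the oxygen libraries (101, 99.8 and 102 CPM against 93.4, 78.2 and 92.5), with a change of 0.20 (SE 0.07, adjusted p 0.172). Of the 10 genes, Errfi1 and Klf9 lay above the oxygen libraries and Zbtb16 and Nr3c1 below, against 12.9% and 13.8% of all genes tested in pooled neurons. Sgk1 stood at 108, 98.6 and 91.0 CPM after sevoflurane and 116, 103 and 110.2 with oxygen, a change of -0.15 (SE 0.07, adjusted p 0.307). Map3k6, at 0.597 to 1.01 CPM, and Tsc22d3, at 5.70 to 9.66 CPM, were scarce in neurons, with log2 fold changes of 0.03 and 0.04.

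Among the other classes, Errfi1 rose in CA1 pyramidal-like nuclei. It stood there at 59.8, 60.9 and 55.0 CPM after sevoflurane and at 33.0, 36.5 and 36.4 with oxygen, with a wide gap between the groups. The log2 fold change was 0.73 (SE 0.10, adjusted p 0.00369), in a class where 0.544% of 13959 genes tested rose, and it passed in each of the 6 runs that left out a library (0.68 to 0.77) and with the gene span correction (0.70, adjusted p 0.00591). Summed markers moved with the groups in this class too: 7 dentate granule markers (109 to 120 CPM with oxygen, 133 to 154 after sevoflurane), 5 CA1 markers (338 to 363 against 366 to 421), 7 CA3 markers (167 to 188 against 192 to 221), 5 immature neuron markers (25.1 to 32.1 against 32.6 to 40.03) and 8 ependymal markers (12.1 to 12.7 against 14.9 to 18.6) were higher after sevoflurane. Lower were 12 subicular or cortical markers (819.6 to 918 against 703 to 754), 5 smooth muscle markers (4.28 to 4.72 against 2.88 to 4.11) and 8 choroid plexus markers (101 to 318 against 49.9 to 67.6). None of these markers was at 0, and their part in the Errfi1 result was not tested. Errfi1 is overlapped by 1700045H11Rik on the other strand, and how reads in the overlap were assigned is not stated. In the opposite direction Zbtb16 reached -0.31 in CA1 (SE 0.08, adjusted p 0.0533), short of the threshold.

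Ddit4 rose in microglia-like nuclei, from 24.6, 7.76 and 9.80 CPM with oxygen to 30.7, 45.6 and 54.2 after sevoflurane. The groups did not overlap, although oxygen replicate 1 lay near sevoflurane replicate 1. Ddit4 thus rose by 1.65 on the log2 scale (SE 0.38, adjusted p 0.0384), in a class where 0.116% of 9511 genes tested rose. It rested on 4 to 34 UMIs in a library, and DESeq2 did not call it (adjusted p 0.244). Nor did it pass with the gene span correction (1.45, adjusted p 0.0975) or with doublets kept (1.54, adjusted p 0.0574). It also missed the threshold without sevoflurane replicate 2 (1.61, adjusted p 0.101) or 3 (1.45, adjusted p 0.131) and without oxygen replicate 2 (1.28, adjusted p 0.325) or 3 (adjusted p 0.235), and without sevoflurane replicate 1 it was 1.85 (adjusted p 0.00688). In the same class 6 macrophage markers summed to 509 to 637 CPM with oxygen and 5.95 to 259 after sevoflurane, none of them at 0. Markers of oligodendrocyte precursors (51.3 to 93.4 against 93.4 to 118) and of ependymal cells (7.32 to 23.3 against 24.5 to 52.1) were higher after sevoflurane, and choroid plexus markers lower (250.4 to 1634 against 35.2 to 39.3). The part of these markers in the result was not tested. In oligodendrocyte precursor-like nuclei edgeR called 0 of 10173 genes, with 1119 at an unadjusted p under 0.05, and DESeq2 called 4. No gene of the 10 passed in CA2, CA3, subicular or cortical excitatory, inhibitory, oligodendrocyte or ependymal-like nuclei. Over all nuclei together Errfi1 was the 1 gene called: 46.9, 47.7 and 42.0 CPM against 34.1, 33.2 and 35.4, a rise of 0.41 (SE 0.07, adjusted p 0.0329), where 0.76% of 20777 genes tested rose. It did not pass without sevoflurane replicate 1 (0.39, adjusted p 0.0677) or 2 (0.38, adjusted p 0.0946) or without any 1 of the oxygen libraries (0.39 to 0.43, adjusted p 0.107 to 0.1197). Over all nuclei 8 astrocyte markers summed to 944 to 1077 CPM with oxygen and 585 to 857 after sevoflurane, and the CA3, subicular or cortical, inhibitory, Cajal-Retzius, macrophage, smooth muscle and choroid plexus lists were also lower, with the CA2 and T cell lists higher and no marker of these lists at 0. The set of all nuclei also held the 9996 unnamed nuclei. Among them were a cluster of 4528 nuclei with a median of 792 UMIs and clusters left unnamed for their share of doublets. The unnamed Gad1 cluster of 603 nuclei, most of them from sevoflurane libraries, was in it too. The part of the markers and of these clusters in the Errfi1 result was not tested.

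**Figure D4:**
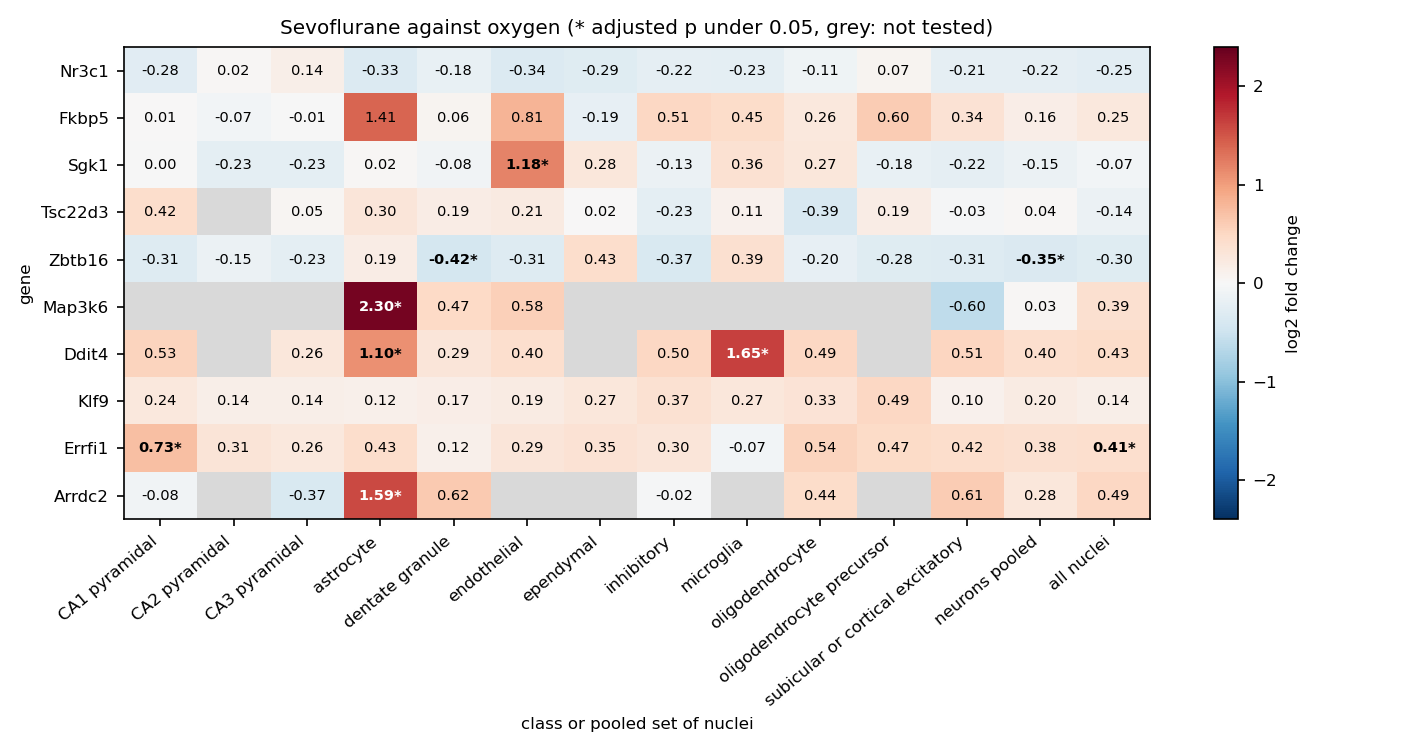
Log2 fold change (sevoflurane against oxygen) of the 10 genes in 12 classes of nuclei, pooled neurons and all nuclei; red is higher after sevoflurane, blue lower, an asterisk marks an adjusted p under 0.05 and grey a gene too scarce to be tested. The calls lie at Map3k6, Ddit4 and Arrdc2 in astrocyte-like, Sgk1 in endothelial-like, Ddit4 in microglia-like and Errfi1 in CA1 pyramidal-like nuclei, with Zbtb16 lower in dentate granule-like nuclei and pooled neurons and Errfi1 higher over all nuclei.

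The genes differed in how uniform they were over the 12 classes. Klf9 had a positive sign in 12 of 12 classes, from 0.10 to 0.49, and passed in none. Ddit4 was positive in all 9 classes where it was tested (0.26 to 1.65, median 0.50) and Errfi1 in 11 of 12 (-0.07 to 0.73, median 0.33). Sgk1 was positive in 5 of 12, with all sevoflurane libraries above oxygen in endothelial-like nuclei and below in CA3 pyramidal, inhibitory and subicular or cortical excitatory-like nuclei, where 10.6%, 10.7% and 11.6% of all genes tested lay below. Zbtb16 was negative in 9 of 12 and lowest in sevoflurane replicate 1 in all 12 classes. Tsc22d3, which encodes the anti-inflammatory protein GILZ, ranged from -0.39 in oligodendrocyte-like to 0.42 in CA1 pyramidal-like nuclei. Its sevoflurane libraries all lay above oxygen in CA1 and below it in oligodendrocyte-like nuclei, against 10.4% and 9.66% of all genes tested. Oxygen replicate 2 was the lowest library for Ddit4 and Klf9 in 10 of 12 classes each, for Map3k6 in 9 and for Tsc22d3 in 8.

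The levels with oxygen, compared here over the 12 classes tested only, also set the genes apart. Map3k6, Ddit4, Klf9 and Tsc22d3 were highest in endothelial-like nuclei, at 52.1, 118, 457 and 312 CPM, and Tsc22d3 stood at 111 ± 39.5 CPM in microglia-like nuclei, 18.1 ± 1.58 in oligodendrocyte precursor-like nuclei and means of 2.73 to 10.9 in the 6 neuronal classes. Of these 12 classes, oligodendrocyte-like nuclei held the most Sgk1, Zbtb16, Errfi1 and Arrdc2, at 327 ± 63.2, 907 ± 71.5, 88.6 ± 11.5 and 104 ± 15.1 CPM (SD, n = 3). Arrdc2 there was above every oxygen library of the other 11 classes, the next being astrocyte-like nuclei at 19.3 ± 8.22. For Sgk1 the precursors (282 ± 31.1) and for Zbtb16 the endothelial-like nuclei (854 ± 152) overlapped the oligodendrocyte-like range, as did CA2 pyramidal-like (78.4 ± 13.1) and microglia-like nuclei (75.1 ± 22.0) for Errfi1. Among the 12, Sgk1 was lowest in astrocyte-like (45.9 ± 10.5 CPM), ependymal-like and dentate granule-like nuclei, which overlapped each other. These levels are compared across classes within a gene, not between genes.

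Whether the response itself differed between the 3 compartments was tested by limma on the difference of log2 CPM within each library. Sgk1 responded more in endothelial-like nuclei than in neurons, by 1.30 (SE 0.19, adjusted p 0.0131), in a comparison where 0.237% of 8430 genes did so. This was the 1 difference called among the 9 genes tested, and it fell short without any 1 of the 3 oxygen libraries (1.26 to 1.36, adjusted p 0.0672 to 0.121) and with the stricter nuclei filter (0.71, adjusted p 0.449). Against astrocyte-like nuclei the endothelial response of Sgk1 was also the greater, but the difference of -1.15 (SE 0.28, astrocyte-like minus endothelial-like) did not pass (adjusted p 0.058), and 0 of 9 genes were called where 1.23% of 8100 genes were. Astrocyte-like nuclei against neurons gave 0 calls among the 10 genes, where 1.41% of 12537 genes were called. The closest were Arrdc2 at 1.28 (SE 0.31, adjusted p 0.0585), Map3k6 at 1.77 (SE 0.46, adjusted p 0.074) and Zbtb16 at 0.49 (SE 0.14, adjusted p 0.0983). Ddit4 followed at 0.64 (SE 0.20, adjusted p 0.14). Without sevoflurane replicate 1, Map3k6, Arrdc2 and Zbtb16 passed (adjusted p 0.00934 for Map3k6, 0.0276 for Arrdc2 and 0.00652 for Zbtb16), and so did Map3k6 against endothelial-like nuclei (1.89, adjusted p 0.0382). The rises of Map3k6, Arrdc2 and Ddit4 in astrocyte-like nuclei are not shown to differ from the response in neurons over all 6 libraries.

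A further 28 glucocorticoid-responsive genes were counted beside the 10. This list, like the 10, was chosen with earlier results of these data known. Its counts and medians are therefore a description, not independent support. In astrocyte-like nuclei 25 were tested, 4 rose and 1 fell, 23 had a positive sign, and the median log2 fold change was 0.52, against 0.01 over all genes. Of all genes tested in this class 0.982% rose and 1.28% fell. Pdk4, which limits the use of pyruvate by mitochondria, rose from 25.3 ± 0.834 to 65.0 ± 6.27 CPM (SD, n = 3; log2 fold change 1.37, SE 0.15, adjusted p 0.000185). The small GTPase gene Arl4d rose from 5.18 ± 1.80 to 16.9 ± 3.04 CPM (1.76, adjusted p 0.00456), the triglyceride lipase gene Pnpla2 from 16.5 ± 5.07 to 32.8 ± 2.94 CPM (1.00, adjusted p 0.0238), and Txnip by 1.14 (adjusted p 0.0497). Mertk, a receptor for the clearance of dying cells, fell from 1870.1 ± 147 to 1209 ± 181 CPM (-0.63, adjusted p 0.0209). In endothelial-like nuclei 22 were tested and 4 rose: the cell-cycle inhibitor Cdkn1a (143 ± 22.4 to 422 ± 120 CPM, 1.53, adjusted p 0.000887), the metallothioneins Mt2 (1.35, adjusted p 0.0016) and Mt1 (1.07, adjusted p 0.0107), and the phosphatase gene Dusp1 (0.94, adjusted p 0.0248). Their median was 0.27, against -0.003 over all genes, and 0 fell, where 1.4% of all genes tested rose and 1.27% fell. In neurons 26 were tested and only the clock gene Per1 rose (18.9 ± 0.443 to 26.9 ± 4.58 CPM, 0.51, adjusted p 0.0457), with a median of 0.17 against 0.02, where 1.46% of all genes tested rose. Many of these genes answer to other signals as well.

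The receptor's partners, 24 genes for chaperones, steroid-converting enzymes, coactivators and corepressors, gave few calls. Of 23 tested in astrocyte-like nuclei and 24 in neurons edgeR called 0, with medians of 0.05 and -0.01. In endothelial-like nuclei 1 of 22 passed: Nr3c2, the mineralocorticoid receptor gene whose product binds the same hormone, went from 314 ± 12.2 to 186 ± 37.5 CPM (SD, n = 3) and fell by 0.74 (SE 0.18, adjusted p 0.0338), where 1.27% of all genes tested fell. Nr3c2 also passed in dentate granule-like nuclei, where it fell by 0.70 (SE 0.10, adjusted p 0.0055) and 3.15% of all genes tested fell.

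The genes whose log2 CPM ran most like that of the receptor over 72 points (12 classes in 6 libraries, 14606 genes) were the hypoxia factor gene Hif1a, with a Pearson r of 0.87, Ier5 (0.87), Set (0.87), Hnrnpk (0.87) and Pik3r1 (0.86). For Fkbp5 they were Gm22146 (0.92), which overlaps it on the other strand, E230001N04Rik (0.86), Cbl (0.80), Mia2 (0.79) and Foxj2 (0.79). The points share libraries, depth and class, so these values describe a likeness of level across classes and carry no test.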

How the data were processed

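The authors deposited filtered matrices of whole UMI counts per gene and nucleus for 6 libraries of 10x Genomics 3' v3.1 single-nucleus RNA, made with fastp and Cell Ranger 7.1.0 on mm10, per the submitters' processing notes. The annotation, and any use of intronic reads or strand in counting, is not given in the sources used here. Of 53824 deposited barcodes, 53287 had at least 500 UMIs, 300 genes and at most 5% mitochondrial UMIs. Scrublet scores above 0.3 removed 1413 doublets (its automatic threshold worked in 5 of 6 libraries). Counts were normalised and 3000 variable genes picked with scanpy 1.11.5. Nuclei were clustered by the Leiden method in igraph 0.11.9 on a graph of shared neighbours (40 components, 20 neighbours, resolution 1). This gave 44 clusters, of which 30 were named by at least 3 markers.

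Counts were summed per library and class and tested with edgeR 4.0.16 (TMM, filterByExpr, robust quasi-likelihood, treatment as the only term, Benjamini-Hochberg adjustment over all genes tested, threshold 0.05). CPM of single genes in the sets tested are counts scaled by the TMM-adjusted library size. Summed markers, sex-linked genes and classes too small for a test were scaled by the plain UMI total instead. Differences of response were tested with limma 3.58.1 on log2 CPM (prior count 2). Alternatives were DESeq2 1.42.0, its size factors, no low-count filter, each library left out, a replicate block, a correction for gene span, stricter nuclei (1000 UMIs, 500 genes, 1% mitochondrial), doublets kept, and others of class make-up and prior count. The methods were tested on simulated data. Of each further list, up to 4 called genes with the smallest p were named in astrocyte-like, endothelial-like and neuronal nuclei. Txnip and the calls in other classes fall outside that rule and were named after their values were seen. The 10 genes, the lists and the markers were chosen with earlier results of these data known.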

Additional observations from a re-analysis of the deposited data

Results flagged for a closer look

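The response of Sgk1 was called different between endothelial-like nuclei and pooled neurons, by 1.30 on the log2 scale (limma, adjusted p 0.0131). Of 8430 genes tested, 0.237% were called in that direction. The call was lost without any single oxygen library (adjusted p up to 0.121) and with the stricter nuclei filter.

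In Sgk1 and Tsc22d3 all sevoflurane libraries lay above all oxygen libraries in some classes and below them in others. For Sgk1 the log2 fold change was 1.18 in endothelial-like nuclei, against -0.23 in CA3 pyramidal-like, -0.13 in inhibitory-like and -0.22 in subicular or cortical excitatory-like nuclei. For Tsc22d3 it was 0.42 in CA1 pyramidal-like and 0.21 in endothelial-like nuclei, against -0.39 in oligodendrocyte-like nuclei (adjusted p 0.136 by edgeR), where the sevoflurane libraries held 167.5, 161 and 166 CPM and the oxygen libraries 211, 208 and 230. Between these pairs of classes the difference was not tested. Of all genes tested in each of these classes, 9.21% to 11.6% were separated without overlap in the direction given here. Sgk1 and Tsc22d3 were picked out from 10 genes followed over 12 classes. Opposite separations alone therefore do not show opposite responses.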

How the results depend on the processing

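The counts of genes called, of the 10, moved as follows. In astrocyte-like nuclei 3 were called, and 2 to 4 with 1 library left out. In endothelial-like nuclei the 1 call became 0 with stricter nuclei. In pooled neurons 1 became 2 with DESeq2 or no low-count filter, 0 with the replicate block, the gene span correction, both together or stricter nuclei, and 0 to 2 with 1 library left out. In the other classes 3 became 9 with no filter, 1 (Errfi1 in CA1 pyramidal-like nuclei) with the gene span correction with or without the block, and 1 to 5 with 1 library left out. Over all nuclei 1 became 2 with DESeq2, 0 with the block with or without the span correction, and 0 to 1 with 1 library left out. For the differences of response, astrocyte-like against neurons went from 0 to 1 with the block or with dentate granule-like nuclei in place of pooled neurons and ranged from 0 to 3 with 1 library left out, endothelial-like against neurons went from 1 to 0 with stricter nuclei and ranged from 0 to 1, and astrocyte-like against endothelial-like ranged from 0 to 1. The cause was not tested.

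Signs turned only for values near 0. With 1 library left out, Sgk1 in astrocyte-like nuclei ranged from -0.16 to 0.18 (also -0.03), Klf9 there from -0.0143 to 0.20, Tsc22d3 in neurons from -0.15 to 0.22, Map3k6 in neurons from -0.17 to 0.19, and the endothelial-like minus neuron differences of Ddit4 and Zbtb16 from -0.12 to 0.10 and from -0.22 to 0.18. Map3k6 in neurons was -0.0204 with the span correction, -0.0302 with the block added and -0.0946 with stricter nuclei. With dentate granule-like nuclei in place of neurons the differences of Ddit4 and Zbtb16 were 0.0741 and 0.0078. Of 329 values under other alternatives 305 kept direction and call, 15 lost the call, 4 gained it and 5 turned. With 1 library left out, of 294 values 253 kept both, 22 lost the call, 7 gained it and 12 turned.

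Gene levels showed no pairing by replicate number: same-numbered libraries correlated at -0.15 to 0.10, and 0 to 2 of 6 libraries correlated best with their own number. With so few libraries this check cannot tell whether same-numbered libraries were handled together. The block moved calls over all genes from 124 up and 162 down to 124 and 132 in astrocyte-like nuclei, from 119 and 108 to 90 and 84 in endothelial-like nuclei, from 279 and 551 to 113 and 237 in neurons, and from 158 and 260 to 22 and 42 over all nuclei. With it Zbtb16 was -0.35 (adjusted p 0.100) in neurons and -0.42 (adjusted p 0.0716) in dentate granule-like nuclei, and Errfi1 over all nuclei 0.41 (adjusted p 0.0984). Few UMIs limit Map3k6 in most classes and Ddit4 in microglia-like nuclei, and few nuclei limit the endothelial-like class.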

Other observations

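Leptomeningeal fibroblast-like nuclei, too few for a test (376 with oxygen and 226 after sevoflurane, libraries pooled), held Fkbp5 at 947 CPM with oxygen (exact Poisson 95% interval 900 to 996) and 1172 (1099 to 1250) after sevoflurane. Zbtb16 stood at 776 (734 to 821) and 864 (801 to 931). Errfi1 stood at 136 (119 to 156) and 279.8 (244.5 to 319), and Nr3c1 at 179.8 (159.5 to 202) and 115 (92.9 to 141). The intervals cover counting error only, and with pooled libraries there is no replicate check. By library the nuclei numbered 50, 18 and 158 after sevoflurane and 114, 110 and 152 with oxygen. Replicate 3 thus gave most of the sevoflurane pool, and no difference between the groups was tested.

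Choroid plexus-like nuclei, 175 in the oxygen libraries and 0 in the sevoflurane libraries, held Sgk1 at 532 CPM (485 to 582), Nr3c1 at 119 (97.2 to 144) and Fkbp5 at 37.3 (25.7 to 52.4). Map3k6 had 0 UMIs there, with an exact Poisson upper bound of 4.17 CPM.

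Further single calls among the 28 other glucocorticoid-responsive genes were Cdkn1a in CA1 pyramidal-like nuclei (log2 fold change 1.99, adjusted p 0.047 by edgeR), Mt2 in dentate granule-like (0.62, adjusted p 0.0359) and oligodendrocyte-like nuclei (0.82, adjusted p 0.0329), Per1 in inhibitory-like nuclei (0.78, adjusted p 0.0126) and Nedd9 in ependymal-like nuclei (1.13, adjusted p 0.0293). All 5 were higher after sevoflurane. In these classes, in the order named, 22, 26, 24, 21 and 12 of the 28 genes were tested. Of all genes tested there, 2.03%, 4.58%, 0.527%, 1.74% and 0.732% passed in either direction.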
